A study of Rattus norvegicus with 12 samples.

Results

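This comparison sets 2 RNA-seq libraries labelled Tnfrsf1α-/- and treated with tumour necrosis factor alpha (TNFα) against the 2 libraries of untreated wild type, 4 of the 12 libraries of the study. The libraries were chosen by their labels, and the genes were those with a mean of at least 1 FPKM (fragments mapped to a transcript, corrected for its length in kilobases and for library size) over the 12 libraries, which left 11860 lines to test of 22384 that carry a gene symbol. All libraries came from cells called HPCs in the labels, from rats at day 13.5 of gestation, and the series title expands this name to hepatic progenitor cells, immature liver cells that can form hepatocytes and bile duct cells. The study has 6 groups of 2: wild type, Tnfrsf1α-/- and Tnfrsf1β-/-, each untreated or given TNFα for 1 hour. Its title names TNFR2, hnRNPK and YAP, a receptor, an RNA-binding protein and a transcriptional co-activator, in liver cancer. The untreated wild-type group carries no named deletion and received no TNFα, and the treated group carries the Tnfrsf1α-/- label and received TNFα for 1 hour. The comparison therefore joins a genotype label and a treatment, which cannot be told apart within it. The labels give neither the way the deletion was made nor the culture or animal behind each library. The p-values below thus rest on the spread between libraries alone, and that spread may be technical.

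TNFα signals through a pair of receptors. TNFR1, the product of Tnfrsf1a, recruits adaptor proteins and kinases that switch on NF-kB or start cell death, while TNFR2, the product of Tnfrsf1b, lacks a death domain and signals through TRAF proteins. YAP and its relative TAZ are held in the cytoplasm by the kinases of the Hippo pathway and, once in the nucleus, act with TEAD proteins on genes of growth, adhesion and matrix. hnRNPK binds poly(C) stretches in RNA and DNA and takes part in transcription, splicing and translation.

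Levels below are log2(FPKM + 1) of single libraries, given for replicate 1 and then replicate 2, and differences are treated minus untreated group means on that scale with the standard error of limma's fit to all 12 libraries. A gene is called higher or lower where limma's adjusted p is under 0.05. Read depth is unknown, since the table holds no counts. Total FPKM was 1071530 and 1231671 in untreated wild type and 1311294 and 1461416 in the treated libraries, against 447554 to 2085916 over all 12. The treated pair stood apart from the other pairs of the study. Spearman's rho over the tested genes, given as a description because genes are no replicates, was 0.782 between its libraries, against 0.961 between the untreated wild-type libraries. Treated replicate 1 was closer to untreated wild-type replicate 1 (rho 0.854) and to the untreated libraries under its own label (0.851 and 0.859) than to its partner. That closeness was not particular to its label. Its rho was 0.859 and 0.857 with the untreated libraries labelled Tnfrsf1β-/- and 0.834 with replicate 1 of the treated ones. Treated replicate 2 was at 0.779 and 0.748 with untreated wild type and at 0.611 and 0.630 with the untreated libraries under its label. The median absolute difference between replicates was 0.68 log2 units in the treated pair, 0.40 in untreated wild type and 0.07 to 0.32 in the other pairs. The fit to all 12 libraries uses 1 spread per gene for all 6 groups, which these unequal pairs do not meet. Its standard errors and adjusted p may thus be too small for the treated pair.

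The receptor gene named in the label was not lower under that label. Tnfrsf1a was at 5.45 and 5.16 in untreated wild type and at 5.65 and 5.95 in the treated libraries, a difference of 0.50 (SE 0.19, limma adjusted p = 0.066). The treated values lay above both wild-type values, so the groups are called libraries labelled Tnfrsf1α-/- throughout, and every direction drawn here rests on the label. RNA from a gene that lost part of its coding sequence can still be counted, so this level is no proof of an intact receptor. Tnfrsf1b was listed at 0 in both untreated wild-type libraries and at 0 and 4.09 in the treated libraries, so 1 treated library had it and the other did not (limma adjusted p = 0.14). A listed 0 can be a failed estimate.

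Markers of the labelled cell type were in part absent and in part abundant in both groups. Afp, Epcam, Hnf4a and Dlk1, which mark fetal hepatoblasts and hepatic progenitors, were listed at 0 in all 4 libraries, and the keratin genes Krt18 and Krt19 did not pass 0.46 in any of them. Krt7, a bile duct keratin, was at 13.80 and 13.50 in untreated wild type and at 14.63 and 15.11 in the treated libraries. Mesenchymal genes were present in both groups: Vim, the intermediate filament vimentin, was at 10.57 and 10.73 against 10.63 and 10.92, and Des, desmin, at 6.04 and 6.28 against 5.95 and 6.45. Neither Vim (limma adjusted p = 0.802) nor Des (limma adjusted p = 0.947) differed beyond the spread. Other mesenchymal and stellate cell markers moved: Mcam was 9.56 log2 units higher and Col1a1 2.39 lower by group means. Prrx1, Twist1 and Cspg4 lay over 2 log2 units above untreated wild type, and Acta2 as far below, in treated replicate 2 alone. Of 27 lines 15 were below a level of 1 in each untreated wild-type library, and 14 and 11 in the treated ones. The summed level of 27 mesenchymal and stellate cell marker lines was 6540 and 7630 FPKM in untreated wild type and 8950 and 13500 FPKM in the treated libraries, and Lrat, Hgf, Thy1, Tcf21 and Rgs5 were listed at 0 in all 4. Progenitor and cholangiocyte markers summed to 14700 and 12000 FPKM against 26400 and 36000 FPKM, most of it Krt7. Of the same list Sox9, a biliary transcription factor, was at 5.21 and 5.78 against 9.67 and 9.39 (limma adjusted p = 8.57e-06), and Cdh1, E-cadherin, was also higher. Krt7 was higher too (difference 1.22, SE 0.25, limma adjusted p = 0.00817) and lost its call in 4 of 14 alternatives. These were the 3 higher calls among 13 tested members, beside 25.3% of all genes higher and 9.17% lower. Krt8, another keratin of the list, was its 1 lower call (difference -5.15, limma adjusted p = 0.023), also lost in 4 of 14 alternatives. Foxa2 lay over 2 log2 units below untreated wild type in treated replicate 2 alone. The marker list thus held both absent and abundant members, and the libraries are described by their genes.

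Among the hepatocyte genes, Alb, Ttr and Ahsg were near 0 in both groups, with Alb at 0.27 and 0.20 in the treated libraries and listed at 0 in untreated wild type. The summed hepatocyte level was 29.7 and 36.3 FPKM in untreated wild type and 1260 and 1230 FPKM in the treated libraries. Nearly all of the treated sum was Ambp, the precursor of alpha-1-microglobulin and bikunin, at 3.07 and 4.20 against 10.27 and 10.24 (difference 6.62, SE 0.43, limma adjusted p = 8.57e-06). Endothelial markers summed to 87.1 and 52.7 FPKM against 78.9 and 22.9, macrophage and leukocyte markers to 34.7 and 33.5 against 51 and 28.2, and erythroid markers to 2.22 and 3.27 against 0.804 and 1.53. The part of these cell type markers in the results below was not tested, and in bulk RNA fewer cells of a type and less RNA per cell cannot be told apart.

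**Figure D1:**
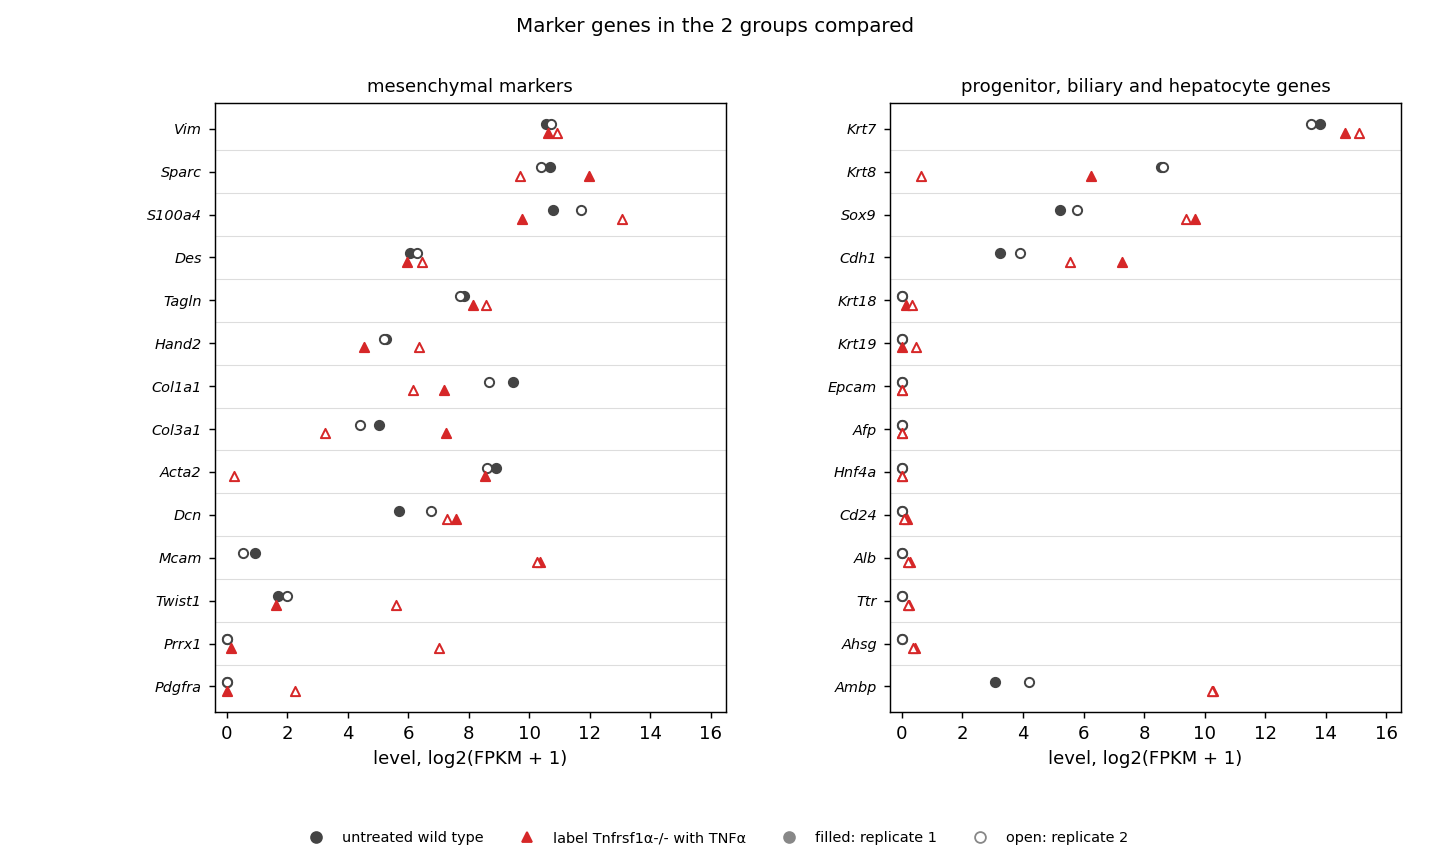
Levels of cell type markers, log2(FPKM + 1), in the 2 untreated wild-type libraries (circles) and the 2 treated libraries labelled Tnfrsf1α-/- (triangles), filled for replicate 1 and open for replicate 2. Vim and Des overlap between the groups, Epcam, Afp and Hnf4a are at 0 in all 4 libraries, Ambp and Sox9 are higher in both treated libraries, and Acta2 is at 8.54 in treated replicate 1 and 0.26 in treated replicate 2.

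Of the 11860 genes tested 2997 (25.3%) were higher and 1088 (9.17%) were lower in the treated libraries labelled Tnfrsf1α-/-, and the median difference over all genes was 0.43. The share of higher calls, 73.4%, depended on the scaling: it was 47.7% with median-ratio scaling, which moved the median of all genes by -0.41, and 40.0% with quantile normalization, which moved it by -0.47. Most calls also used the spread of libraries outside the comparison. A limma fit to the 4 libraries compared, called the 4-library fit below, gave 307 genes higher and 26 lower, and leaving out untreated wild-type replicate 2 left 1062 higher and 409 lower. An unadjusted p under 0.05 was reached by 5604 genes. Array weights gave 332 higher and 47 lower, median-ratio scaling 1710 and 1876, and quantile normalization 1325 and 1991. The median over all genes was 0.49 without treated replicate 2, 0.33 without treated replicate 1 and 0.28 without untreated wild-type replicate 2. Counts for the gene lists below stand beside these background shares and medians. Since the calls over all genes moved with the setting, a list's count that moves is not by itself particular to that list.

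A stricter description uses no model. In 366 genes (3.09%) both treated libraries lay over 2 log2 units above both untreated wild-type libraries, and in 54 genes (0.455%) both lay as far below. The median level of the 366 genes was 3.28 and 2.79 in untreated wild type, 9.10 and 9.11 in the treated libraries, 3.33 and 3.33 in the untreated pair of that label, 3.12 and 2.96 in the treated libraries labelled Tnfrsf1β-/- and 9.20 and 9.18 in wild type with TNFα. The 54 lower genes had medians of 8.40 and 8.55 in untreated wild type and 4.52 and 3.54 in the treated libraries, and were at 3.50 and 3.56 in the untreated libraries under the same label, at 8.33 and 8.39 in the treated libraries labelled Tnfrsf1β-/- and at 4.55 and 5.21 in wild type with TNFα. Most genes that moved far in 1 treated library did not move as far in the other: 209 lay over 2 log2 units above both wild-type libraries in replicate 1 alone and 430 in replicate 2 alone, while 103 and 309 lay as far below in 1 of them alone. In 10 genes the treated libraries moved in opposite directions.

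**Figure D2:**
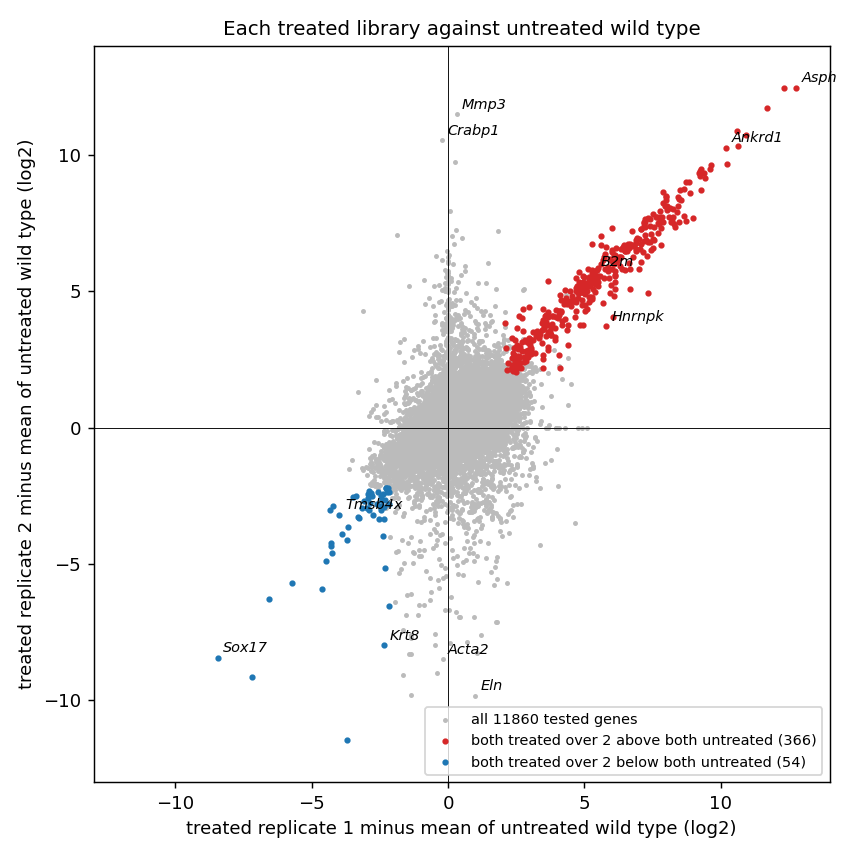
Each point is 1 of the 11860 tested genes, with treated replicate 1 minus the untreated wild-type mean on the x axis and treated replicate 2 minus that mean on the y axis, both in log2 units. Red points are the 366 genes and blue points the 54 genes whose treated libraries both lie over 2 log2 units from both untreated libraries, Asph and Sox17 among them, while Mmp3, Crabp1 and Eln lie along the vertical axis because they moved in replicate 2 alone.

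The 12 highest differences were in genes at or below 3.98 in both untreated wild-type libraries and at or above 9.29 in both treated ones. Asph, which encodes an aspartate beta-hydroxylase of the endoplasmic reticulum, was at 1.51 and 1.43 in untreated wild type and at 14.24 and 13.95 in the treated libraries (difference 12.62, SE 0.21, limma adjusted p = 1.16e-08). Nars2, the mitochondrial asparaginyl-tRNA synthetase, was at 1.47 and 0.85 against 12.85 and 12.90 (difference 11.72, SE 0.26, limma adjusted p = 1.95e-08). Ankrd1, an ankyrin repeat protein and a known YAP target, was at 3.98 and 2.36 against 13.37 and 13.45 (difference 10.24, SE 0.43, limma adjusted p = 5.04e-07). These genes were picked for large differences with both treated libraries above both untreated ones, so the gap between their groups follows from that choice. Alpp, a placental type alkaline phosphatase whose reads may be shared with related phosphatase genes, had a listed 0 in each untreated library and was at 12.32 and 12.47 in the treated ones. Plcb4, a phospholipase C, Tmem54, Cdcp1, a transmembrane substrate of Src kinases, Fscn1, the actin-bundling protein fascin, and Apba2, an adaptor of the amyloid precursor protein, were also listed at 0 in untreated wild type, and their treated levels ran from 9.29 for Apba2 to 10.95 for Plcb4. Against a listed 0 no fold is given. The adhesion genes Mcam, Flrt2 and Amigo2 completed the set, with Mcam at 0.94 and 0.54 against 10.34 and 10.25. All 12 calls held under the 14 alternative settings that were run.

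The same 12 genes were compared with groups that share either the label or the treatment. Asph was at 2.35 and 2.31 in the untreated pair labelled Tnfrsf1α-/-, at 1.45 and 1.11 in the treated libraries labelled Tnfrsf1β-/- and at 13.79 and 13.32 in wild type with TNFα. Fscn1 was listed at 0 in the first 2 of these groups and was at 11.85 and 12.39 in the third. Flrt2 differed from this pattern, at 6.33 and 6.42 in the untreated libraries of its own label. All 12 genes were higher in the treated than in the untreated libraries labelled Tnfrsf1α-/- and higher than in the treated libraries labelled Tnfrsf1β-/- by limma. These comparisons share the treated libraries, so they are not independent of each other.

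The 12 lowest differences held fewer stable calls. Sox17, a transcription factor of endoderm and endothelium, was at 8.32 and 8.56 in untreated wild type and listed at 0 in both treated libraries (limma adjusted p = 2.51e-07). Dmd, dystrophin, was at 9.10 and 9.19 against 1.96 and 0 (limma adjusted p = 8.04e-06). Both calls held under all 14 alternatives. Sox17 and Dmd were also low in the untreated libraries of the same label, at 0.92 and 0.99 and at 2.86 and 2.69. Tbxa2r, the thromboxane A2 receptor, was at 8.56 and 8.29 against 3.95 and 3.55 (difference -4.67, SE 0.49, limma adjusted p = 0.00027), and lost the call with array weights (limma adjusted p = 0.206).

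Other genes of the lowest 12 rested mainly on treated replicate 2. Pla2g2a, a secreted phospholipase A2, was at 11.21 and 11.70 in untreated wild type and at 7.74 and 0 in the treated libraries (limma adjusted p = 0.0178). Ptgis, prostacyclin synthase, was at 9.22 and 9.53 against 7.73 and 0.31 (limma adjusted p = 0.0494). Krt8, a keratin of simple epithelia, was at 8.57 and 8.61 against 6.26 and 0.62 (limma adjusted p = 0.023). Genes of the lowest 12 were picked with both treated libraries below both untreated ones, but the treated libraries of these genes lay far from each other. Ramp3 and Foxs1 had the same shape, with treated replicate 2 at 0.18 and 0. In the 4-library fit the adjusted p of Pla2g2a, Ptgis, Krt8, Ramp3 and Foxs1 was 0.299 to 0.354, and without untreated wild-type replicate 2 it was 0.103, 0.201, 0.115, 0.176 and 0.102. Wfdc21 and RGD1563124 were 5.28 and 4.43 log2 units lower, and Prune2 was at 5.54 and 5.88 in untreated wild type and listed at 0 in both treated libraries.

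**Figure D3:**
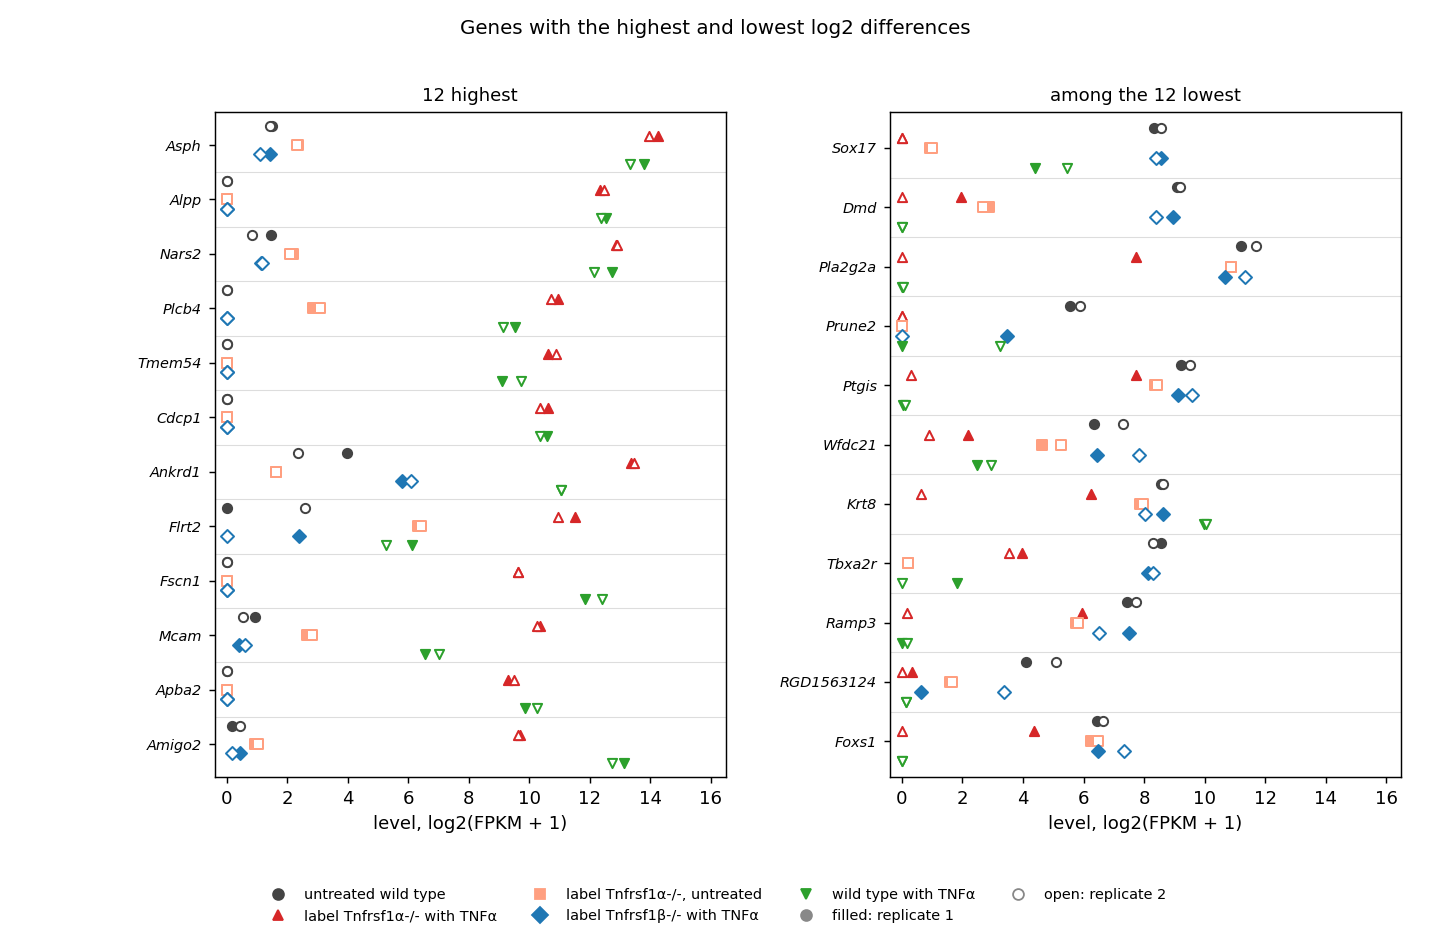
Levels, log2(FPKM + 1), of the 12 genes with the highest differences and of genes among the 12 with the lowest, in 5 groups, filled for replicate 1 and open for replicate 2. On the left both treated libraries labelled Tnfrsf1α-/- (triangles pointing up) lie far right of untreated wild type (circles), near wild type with TNFα for most genes, and on the right Pla2g2a, Ptgis, Krt8, Ramp3 and Foxs1 show treated libraries several log2 units apart.

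Adaptors and kinases of TNF receptor signalling had 15 of 35 members higher and 1 lower, with a median of 1.02 against 0.43 over all genes, beside background shares of 25.3% and 9.17%. Map3k7, the kinase TAK1 that couples receptors to NF-kB, was listed at 0 in untreated wild type and was at 3.48 and 2.51 in the treated libraries (limma adjusted p = 0.00462). Nfkb2, the gene of the p100 subunit of NF-kB, was at 3.33 and 2.89 against 4.25 and 5.20 (difference 1.61, SE 0.31, limma adjusted p = 0.00643). Birc2, Mlkl, Fadd and Ripk1, which encode an inhibitor of apoptosis, the executor of necroptosis, a death domain adaptor and a receptor-interacting kinase, were 1.04, 1.13, 1.02 and 1.33 log2 units higher. For each of these genes, named for their small p, the treated libraries lay above both wild-type libraries. The adaptor Traf2 was at 4.79 and 4.72 against 4.79 and 4.67 (limma adjusted p = 0.936), and Tradd, which binds TNFR1, was at 5.02 and 5.07 against 4.13 and 5.59 (limma adjusted p = 0.75). Under quantile normalization 3 genes of the list were higher and 1 lower, without untreated wild-type replicate 2 it was 4 and 0, and in the 4-library fit by limma none passed, 3 having an unadjusted p under 0.05 (limma adjusted p of 0.0778 for Map3k7 and 0.277 to 0.339 for the other called genes named here).

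NF-kB feedback and adhesion targets were near the background in both directions, with 6 of 22 higher and 2 lower and a median of 0.85, or 10 and 3 without treated replicate 2 and 3 and 1 without untreated wild-type replicate 2. Cflar, which encodes the caspase-8 inhibitor c-FLIP, was at 8.78 and 8.66 in untreated wild type and at 11.59 and 11.18 in the treated libraries (difference 2.66, SE 0.18, limma adjusted p = 1.29e-05), and its call held under all 14 alternatives. Icam1, a leukocyte adhesion receptor, was at 4.74 and 4.15 against 7.60 and 5.91 (difference 2.31, SE 0.47, limma adjusted p = 0.00879). Tnfaip3, the deubiquitinase A20 that ends NF-kB signalling, was at 2.42 and 1.01 against 3.76 and 3.33 (difference 1.83, SE 0.42, limma adjusted p = 0.0138). Bcl3, an atypical IkB protein, was lower, at 4.02 and 3.71 against 1.88 and 1.28 (difference -2.28, SE 0.30, limma adjusted p = 0.00113). Nfkbia, the classical early target that encodes IkBα, was at 5.07 and 4.74 against 5.08 and 7.00, high in replicate 2 alone, and did not pass (limma adjusted p = 0.11). Icam1, Tnfaip3 and Bcl3 lost their calls in the 4-library fit, with adjusted p of 0.266, 0.3 and 0.186.

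Chemokines and cytokines did not share a direction: 3 of 20 were higher, 1 was lower and the median was -0.06, while 8 were higher and 2 lower without treated replicate 2 and 5 and 8 without treated replicate 1. Ccl20, a ligand of CCR6, was at 0 and 3.08 in untreated wild type and at 7.87 and 8.11 in the treated libraries (difference 6.45, SE 0.77, limma adjusted p = 0.000599). Its call was lost in the 4-library fit (limma adjusted p = 0.129). Ccl2, which draws monocytes, was at 10.36 and 9.95 against 8.80 and 4.07 (limma adjusted p = 0.0391), so the treated libraries differed from each other by more than replicate 1 did from untreated wild type. Without untreated wild-type replicate 2 the adjusted p of Ccl2 was 0.143. Among the immediate early genes 7 of 26 were higher and 4 lower, or 15 and 5 without treated replicate 2 and 4 and 3 without untreated wild-type replicate 2. Junb was at 5.80 and 5.63 against 10.47 and 10.68 (difference 4.86, SE 0.23, limma adjusted p = 1.12e-06), and Dusp1, a phosphatase of MAP kinases, was at 5.07 and 4.14 against 9.98 and 10.18 (difference 5.47, SE 0.28, limma adjusted p = 1.68e-06). Egr1 was lower, at 9.19 and 9.30 against 7.40 and 6.66 (difference -2.22, SE 0.25, limma adjusted p = 0.00038). Junb and Dusp1 held under all 14 alternatives, and Egr1 lost the call in the 4-library fit (limma adjusted p = 0.0932). Fos was higher, at 0.33 and 0.16 against 1.30 and 0.96 (difference 0.88, SE 0.23, limma adjusted p = 0.0215), and lost the call in 5 of 14 alternatives, while the untreated pair under the Tnfrsf1α-/- label had 5.92 and 5.89.

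Of the 25 YAP and TAZ targets tested, 12 were higher and none was lower by limma, also none at an unadjusted p under 0.05, the median was 1.79, and 8 of 25 lay over 2 log2 units above untreated wild type in both treated libraries, beside 3.09% of all genes. The counts by setting were 11 higher and 1 lower with median-ratio scaling, 11 and 2 with quantile values, 10 and 0 without untreated wild-type replicate 2, 7 and 0 in the 4-library fit, 6 and 0 with array weights, 20 and 0 without treated replicate 2 and 13 and 3 without treated replicate 1. Beside Ankrd1 these were led by Amotl2, an angiomotin that binds YAP, at 6.03 and 5.35 against 10.68 and 10.63 (difference 4.97, SE 0.23, limma adjusted p = 8.56e-07), and by Axl, a receptor tyrosine kinase, at 7.07 and 6.21 against 12.13 and 11.97 (difference 5.42, SE 0.27, limma adjusted p = 1.32e-06). Nt5e, the ectonucleotidase CD73, was at 9.20 and 9.16 against 11.79 and 11.81 (difference 2.62, SE 0.17, limma adjusted p = 8.87e-06). These 4 genes were named for their small p, and in each the treated libraries differed from each other by less than from untreated wild type. All 4 calls held under the 14 alternatives.

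Ctgf and Cyr61 encode related matricellular proteins and are standard YAP targets. Ctgf, connective tissue growth factor, was at 8.07 and 7.63 in untreated wild type and at 10.27 and 10.48 in the treated libraries (difference 2.52, SE 0.27, limma adjusted p = 0.000319), and lost its call with array weights (limma adjusted p = 0.065). Cyr61 was at 0 and 7.85 in untreated wild type and at 7.19 and 3.43 in the treated libraries, so its replicates were further apart than its groups (limma adjusted p = 0.633). Ajuba and Nuak2, shown because their promoters hold the hexamer described next, were not called, with Ajuba at 5.86 and 5.12 against 6.39 and 3.64 and Nuak2 at 3.04 and 2.47 against 2.84 and 2.43. To show where the TEAD-type hexamer GGAATG lies in the sequences of these targets, the promoters of Ctgf, Amotl2 and Cyr61 follow with that of Tbxa2r, a gene of the lowest 12 that also holds it. Each runs 5′ to 3′ on the strand of the gene over 300 bases around the RefSeq start, on rat build GRCr8, with GGAATG, or CATTCC where it lies on the other strand, in capitals. The RefSeq table lists Ctgf as Ccn2 (chr1:22624565-22624864, minus strand), Amotl2 under its own name (chr8:112182376-112182675, plus strand), Cyr61 as Ccn1 (chr2:237225640-237225939, minus strand) and Tbxa2r under its own name (chr7:9038856-9039155, minus strand).
Ctgf: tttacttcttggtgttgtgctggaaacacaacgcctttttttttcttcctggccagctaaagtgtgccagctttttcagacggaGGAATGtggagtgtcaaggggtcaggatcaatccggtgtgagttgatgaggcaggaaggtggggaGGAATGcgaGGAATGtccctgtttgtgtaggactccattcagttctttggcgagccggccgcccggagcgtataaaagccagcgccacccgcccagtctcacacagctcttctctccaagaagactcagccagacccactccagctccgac
Amotl2: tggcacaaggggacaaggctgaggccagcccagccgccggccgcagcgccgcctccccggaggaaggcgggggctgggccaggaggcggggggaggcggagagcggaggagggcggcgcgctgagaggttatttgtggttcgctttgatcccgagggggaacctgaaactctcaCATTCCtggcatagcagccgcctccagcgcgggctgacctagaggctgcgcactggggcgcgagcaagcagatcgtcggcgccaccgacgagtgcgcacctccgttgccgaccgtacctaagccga
Cyr61: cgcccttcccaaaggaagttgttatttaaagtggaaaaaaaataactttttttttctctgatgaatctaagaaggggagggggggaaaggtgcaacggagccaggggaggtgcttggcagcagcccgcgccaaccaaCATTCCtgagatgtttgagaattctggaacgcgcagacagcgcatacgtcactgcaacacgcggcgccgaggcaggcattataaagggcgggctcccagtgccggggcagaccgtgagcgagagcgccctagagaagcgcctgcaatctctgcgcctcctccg
Tbxa2r: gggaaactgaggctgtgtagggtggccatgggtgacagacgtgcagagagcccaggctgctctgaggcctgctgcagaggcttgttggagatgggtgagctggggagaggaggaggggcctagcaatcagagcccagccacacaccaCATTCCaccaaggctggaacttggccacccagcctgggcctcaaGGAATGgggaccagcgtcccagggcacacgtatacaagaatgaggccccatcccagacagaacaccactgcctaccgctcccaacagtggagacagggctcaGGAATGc
Ctgf and Tbxa2r each held 3 matches, and Amotl2 and Cyr61 held 1 each. A promoter was matched for 18 of the 25 targets and 6 of the 18 held the hexamer (33.3%), as did 0 of 9 matched genes of the highest 12, 1 of 7 of the lowest 12 and 14.2% of all 33469 promoters of 300 bases. A match is a description of the letters, and Ankrd1 was not among the promoters matched.

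YAP itself was called, near the threshold. Yap1 was at 4.78 and 2.30 in untreated wild type and at 5.80 and 5.61 in the treated libraries (difference 2.16, SE 0.65, limma adjusted p = 0.0345). The wild-type libraries of Yap1 were further apart than the group means. Without wild-type replicate 2 the difference was 0.92 (limma adjusted p = 0.106). The call was lost in 8 of 14 alternatives. Among them were the 4-library fit (limma adjusted p = 0.325), array weights (0.264) and median-ratio scaling (0.0566). Wwtr1, the gene of TAZ, was at 4.61 and 4.12 against 5.001 and 4.79 and did not pass (limma adjusted p = 0.107).

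The Hippo pathway components had 12 of 26 higher, 1 lower and a median of 1.13. Frmd6, the upstream regulator willin, was at 5.86 and 6.47 against 9.62 and 9.75 (difference 3.52, SE 0.24, limma adjusted p = 1.4e-05) and was the 1 member that stayed called in the 4-library fit. Tead2, a TEAD factor, was lower, at 4.63 and 4.20 against 3.34 and 2.74 (difference -1.38, SE 0.30, limma adjusted p = 0.0109). Of this list 3 were higher and 1 lower without untreated wild-type replicate 2, 22 and 1 without treated replicate 2, 8 and 3 without treated replicate 1, and 6 and 2 with median-ratio scaling.

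Of the 24 hnRNP and poly(C)-binding protein genes 4 were higher and 1 was lower, and Hnrnpk was among the higher, while 10 were higher without treated replicate 2 and 1 without untreated wild-type replicate 2. Its level was 7.24 and 6.55 in untreated wild type and 12.70 and 10.62 in the treated libraries (difference 4.76, SE 0.62, limma adjusted p = 0.00102). Both treated libraries lay above wild type, 2.08 log2 units apart from each other. Hnrnpk was at 8.03 and 7.84 in the untreated pair labelled Tnfrsf1α-/- and at 11.41 and 10.33 in wild type with TNFα. It lost the call in the 4-library fit (limma adjusted p = 0.121) and with array weights (0.0585) and kept it in the other 12 alternatives. The other called members moved less: Hnrnph2, a splicing regulator, was 1.37 log2 units higher, and Hnrnpc, which binds uridine tracts, was 0.57 lower.

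Among the growth factor receptors and ligands 10 of 19 were higher and 1 lower, with a median of 1.33. Areg, an EGF receptor ligand, was at 6.18 and 6.40 in untreated wild type and at 11.57 and 11.70 in the treated libraries (difference 5.34, SE 0.15, limma adjusted p = 6.39e-08). Met, the receptor of hepatocyte growth factor, was at 10.85 and 10.88 against 12.74 and 12.50 (difference 1.75, SE 0.22, limma adjusted p = 0.000874). Both genes were named for their small p, so the gap between their groups follows from that choice. The TGF-beta and BMP pathway had 13 of 35 higher and 1 lower. Inhba, an activin subunit, was at 2.88 and 2.11 against 7.68 and 7.31 (SE of the difference 0.34, limma adjusted p = 1.24e-05), and Ltbp2, a latent TGF-beta binding protein, was at 3.40 and 4.14 against 8.56 and 9.48 (difference 5.26, SE 0.40, limma adjusted p = 2.56e-05). Tgfb1 and Tgfb2 encode ligands of this pathway. Tgfb1 was at 5.53 and 5.34 against 5.54 and 5.29 (limma adjusted p = 0.934). Tgfb2 was 5.62 log2 units higher (limma adjusted p = 0.0156) and lost its call in 4 of 14 alternatives.

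The Wnt and beta-catenin list had 10 of 29 higher and 2 lower. Fzd1, a Frizzled receptor, was at 1.44 and 0.87 against 6.85 and 7.29 (difference 5.92, SE 0.26, limma adjusted p = 6e-07). Ccnd1, cyclin D1, was at 10.88 and 11.09 against a treated mean of 14.01 (difference 3.02, SE 0.16, limma adjusted p = 2.09e-06). The 2 lower members were ligands: Wnt5a was at 8.61 and 8.53 against 5.33 and 5.27 (difference -3.27, SE 0.26, limma adjusted p = 3.16e-05), and Wnt2 was at 2.67 and 2.37 against 0.41 and 0.41 (difference -2.11, SE 0.20, limma adjusted p = 0.000111). The IGF list had 6 of 14 higher and none lower by limma (1 lower at an unadjusted p under 0.05), led by Igf2bp2, an RNA-binding protein of IGF2 mRNA, at 8.23 and 8.13 against 10.17 and 9.97 (difference 1.89, SE 0.17, limma adjusted p = 7.92e-05). Areg, Inhba, Ltbp2 and Fzd1 held under all 14 alternatives. In the 4-library fit Met, Ccnd1, Wnt2 and Igf2bp2 were at limma adjusted p of 0.16, 0.0639, 0.0594 and 0.0583, and Wnt5a lost its call with array weights (limma adjusted p = 0.0727). Without untreated wild-type replicate 2 the higher counts fell to 4, 6, 2 and 3 of the growth factor, TGF-beta, Wnt and IGF lists, and in the 4-library fit by limma to 2, 3, 1 and 0. Without treated replicate 2, 24 of the TGF-beta list were higher.

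Of 41 collagens, laminins and matrix glycoproteins 12 were higher and 1 lower, with a median of 0.84. In both treated libraries 6 of 41 lay over 2 log2 units above untreated wild type, beside 3.09% of all genes. The list's median was 1.42 without treated replicate 2, 0.51 without treated replicate 1 and 0.63 without untreated wild-type replicate 2. Over all genes these medians were 0.49, 0.33 and 0.28. In the 4-library fit by limma 5 of the list were higher and 0 lower, beside 307 and 26 of all 11860 genes. Thbs1, thrombospondin 1, was at 8.66 and 8.62 in untreated wild type and at 13.82 and 13.23 in the treated libraries (difference 4.89, SE 0.27, limma adjusted p = 2.67e-06). Fn1, fibronectin, was at 8.88 and 8.75 against 12.73 and 12.04 (difference 3.57, SE 0.24, limma adjusted p = 1.09e-05), and Vcan, the proteoglycan versican, was at 2.06 and 3.08 against 10.81 and 10.31 (difference 7.99, SE 0.89, limma adjusted p = 0.000385). Col12a1, a fibril-associated collagen, was 6.81 log2 units higher. The lower member was Col1a1, the main chain of type I collagen, at 9.46 and 8.65 against 7.19 and 6.14 (difference -2.39, SE 0.36, limma adjusted p = 0.00236). Thbs1, Fn1, Vcan and Col12a1 held under all 14 alternatives, and Col1a1 lost its call in the 4-library fit (limma adjusted p = 0.182).

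Among integrins and cadherins 10 of 20 were higher and 1 lower, with 6 and 0 without untreated wild-type replicate 2 and 1 and 0 in the 4-library fit by limma. Itgb5, a vitronectin receptor subunit, was at 5.995 and 5.72 against 12.16 and 12.13 (difference 6.29, SE 0.32, limma adjusted p = 1.85e-06). Both N-cadherin and E-cadherin were higher: Cdh2 was at 9.44 and 9.69 against 11.30 and 11.25 (difference 1.71, SE 0.18, limma adjusted p = 0.000285), and Cdh1 was at 3.24 and 3.92 against 7.26 and 5.57 (difference 2.83, SE 0.51, limma adjusted p = 0.00509). In the 4-library fit the adjusted p of Cdh2 was 0.112 and that of Cdh1 0.226. Of the matrix metalloproteinases, TIMPs and plasminogen genes 6 of 16 were higher and none lower by limma, none also at an unadjusted p under 0.05, with 12 and 1 without treated replicate 2 and 3 and 0 without untreated wild-type replicate 2. Adamts1, a secreted protease, was at 1.02 and 0.35 against 5.77 and 5.05 (difference 4.72, SE 0.36, limma adjusted p = 3e-05). Itgb5 and Adamts1 held under all 14 alternatives.

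The thymosins, transgelins and contractile genes had 10 of 29 lower, 4 higher and a median of -0.59. Tmsb4x, thymosin beta 4, which holds actin monomers, was at 13.14 and 13.89 in untreated wild type and at 9.53 and 10.32 in the treated libraries (difference -3.59, SE 0.39, limma adjusted p = 0.000329). Myl6, a myosin light chain, was at 10.72 and 11.57 against 9.29 and 9.27 (difference -1.87, SE 0.26, limma adjusted p = 0.00154). In the untreated libraries of the same label Tmsb4x was at 10.52 and 10.24 and Myl6 at 8.78 and 9.04. Tpm1, a tropomyosin, was higher, at 11.15 and 11.22 against 14.41 and 14.55 (difference 3.30, SE 0.17, limma adjusted p = 1.58e-06), as was Cnn3, a calponin, by 5.05. In the 4-library fit by limma none of the list passed, 3 being higher and 8 lower at an unadjusted p under 0.05, with limma adjusted p of 0.0778, 0.18, 0.0597 and 0.0909 for Tmsb4x, Myl6, Tpm1 and Cnn3. Of 8 transcription factors that drive mesenchymal transition 3 were higher, and Zeb1 was at 7.65 and 8.22 against 10.54 and 10.48 (difference 2.57, SE 0.34, limma adjusted p = 0.0011), a call lost with array weights (limma adjusted p = 0.139). Without treated replicate 1, 7 of the 8 were higher, and 1 was without untreated wild-type replicate 2 and with either scaling.

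Cell division genes split into higher and lower members, and their counts depended on the scaling. Of 27 mitosis and spindle genes 13 were higher and 3 lower. In both treated libraries 9 of 27 lay over 2 log2 units above untreated wild type, beside 3.09% of all genes. With median-ratio scaling 10 were higher and 3 lower, with quantile normalization 9 and 3, and in the 4-library fit by limma 7 and 1. Their summed level was 19000 and 19400 FPKM in untreated wild type and 19100 and 16900 FPKM in the treated libraries. Ccnb1, cyclin B1, was at 6.20 and 6.21 in untreated wild type and at 10.86 and 10.84 in the treated libraries (difference 4.64, SE 0.20, limma adjusted p = 5.64e-07). Aurkb, a kinase of the chromosomal passenger complex, was at 5.02 and 4.42 against 9.10 and 9.24 (difference 4.45, SE 0.22, limma adjusted p = 1.37e-06), and Cdc20, an activator of the anaphase-promoting complex, was at 6.47 and 6.25 against 10.83 and 11.01 (difference 4.56, SE 0.24, limma adjusted p = 2.13e-06). The treated replicates of these genes, which were named for their small p, were within 0.18 log2 units of each other. The 3 lower members, named after their values were seen, were Kif20a, a mitotic kinesin, Ube2c, a ubiquitin-conjugating enzyme of mitosis, and Cdk1. Ube2c was at 13.23 and 13.05 against 10.21 and 10.56, and Kif20a at 11.71 and 11.70 against 8.96 and 8.50. Both were far lower in the untreated libraries of the same label, at 4.39 and 4.50 and at 5.88 and 5.85.

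DNA replication and nucleotide supply genes had 13 of 35 higher and 4 lower. With median-ratio scaling 10 were higher and 8 lower, with quantile normalization 9 and 7, and in the 4-library fit by limma 9 and 1. Their summed level was 13500 and 13100 FPKM in untreated wild type and 15800 and 17300 FPKM in the treated libraries. Tyms, thymidylate synthase, was at 4.71 and 4.87 against 10.74 and 10.96 (difference 6.06, SE 0.17, limma adjusted p = 5.8e-08). E2f1, a transcription factor of S phase, was at 4.12 and 3.65 against 10.35 and 10.58 (difference 6.57, SE 0.24, limma adjusted p = 2.24e-07). Fen1, a flap endonuclease, Rfc5, a clamp loader subunit, Mcm7, a helicase subunit, and Cdt1, which loads that helicase, were 5.87, 4.49, 5.13 and 4.85 log2 units higher. Mcm7 was at 6.61 and 6.39 against 11.56 and 11.71. Of its partners in the helicase, Mcm2 and Mcm5 also lay over 2 log2 units above untreated wild type in both treated libraries. Mcm4 and Mcm3 differed by 0.64 and 0.43 without passing (limma adjusted p = 0.282 and 0.176). Pold1, the catalytic subunit of DNA polymerase delta and named after its values were seen, was lower, at 12.63 and 12.35 against 9.64 and 9.72. The proliferation marker Mki67 was at 3.84 and 3.58 against 5.38 and 4.17 (difference 1.07, SE 0.35, limma adjusted p = 0.0469) and lost its call in 10 of 14 alternatives, and Pcna was at 7.39 and 7.95 against 8.01 and 7.29 (limma adjusted p = 0.981). Ccnb1, Aurkb, Cdca8, Cdc20, Tyms, Fen1, Rfc5, E2f1, Mcm7 and Cdt1 held under all 14 alternatives.

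Single genes of sterol and serine metabolism were far higher, while the cholesterol and fatty acid synthesis list had a lower sum. That sum was 22600 and 18800 FPKM in untreated wild type and 11500 and 13300 FPKM in the treated libraries. The share of higher calls in that list was near the 25.3% of all genes. Of 28 cholesterol and fatty acid synthesis genes 7 were higher and 1 was lower, with 24 higher and 1 lower without treated replicate 2, 5 and 7 without treated replicate 1, and 4 and 1 without untreated wild-type replicate 2. Mvd and Fdps, enzymes of the mevalonate pathway, were at 4.92 and 4.99 against 11.56 and 11.61 (difference 6.63, SE 0.27, limma adjusted p = 4.26e-07) and at 6.75 and 6.84 against 12.51 and 13.05 (difference 5.99, SE 0.27, limma adjusted p = 7.98e-07). Insig1, which retains the sterol sensor complex in the endoplasmic reticulum, was 6.34 log2 units higher. Among 26 unfolded protein and ATF4 stress genes 7 were higher and 1 lower, or 16 and 1 without treated replicate 2 and 4 and 0 without untreated wild-type replicate 2. Shmt2 and Phgdh, enzymes of mitochondrial one-carbon metabolism and serine synthesis, were at 7.54 and 7.23 against 12.98 and 13.39 (difference 5.80, SE 0.24, limma adjusted p = 4.33e-07) and at 7.12 and 7.03 against 10.74 and 11.13 (difference 3.86, SE 0.22, limma adjusted p = 3.54e-06). A further 7 of the 26 genes, Asns, Chac1, Ddit3, Psat1, Sesn2, Slc7a11 and Trib3, lay over 2 log2 units above untreated wild type in treated replicate 1 alone. Over all 11860 genes 209 did so. Ndrg1, a stress and hypoxia gene, was at 4.49 and 3.72 against 11.72 and 11.85 (difference 7.68, SE 0.52, limma adjusted p = 1.17e-05), in a glycolysis and hypoxia list with 3 of 26 higher. Without treated replicate 1, 16 of these 26 were higher, and without treated replicate 2, 4 were higher and 5 lower.

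Antigen processing showed a similar contrast between single genes. B2m, the light chain of MHC class I, was at 9.90 and 9.95 against 15.32 and 15.67 (difference 5.57, SE 0.24, limma adjusted p = 6e-07), while Tap2, a subunit of the peptide transporter, was at 12.03 and 11.99 against 9.84 and 9.64 (difference -2.27, SE 0.15, limma adjusted p = 1.07e-05). Of the 29 interferon-stimulated and antigen processing genes 3 were higher and 4 lower (11 and 7 without treated replicate 2, 5 and 16 without treated replicate 1), and Isg15, a ubiquitin-like modifier induced by interferon, was at 7.67 and 8.36 against 6.44 and 5.92 (difference -1.83, SE 0.27, limma adjusted p = 0.00206). In the 4-library fit Tap2 was at 0.0617 and Isg15 at 0.164, and B2m held under all 14 alternatives. Heat shock proteins had 1 of 19 higher and 2 lower, p53 targets 3 of 20 and 2, the BCL2 family 2 of 12 and 3, and the NRF2 response 1 of 23 and 2. Without treated replicate 1 the NRF2 list had 8 higher and 4 lower, and without treated replicate 2 it had 2 and 10, while p53 targets had 8 and 3 without treated replicate 2. Within the BCL2 family Bcl2l1, the survival factor BCL-XL, was 1.09 log2 units higher and Bok, a pro-apoptotic member, 1.79 lower, with limma adjusted p of 0.313 and 0.159 in the 4-library fit.

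Of 87 tested lines of cytosolic ribosomal proteins, the subunits of the translation machinery, 60 were lower and none was higher by limma, none also at an unadjusted p under 0.05, with a median of -1.33, beside 9.17% of all genes lower. Rps25 was at 11.48 and 12.12 in untreated wild type and at 8.96 and 9.71 in the treated libraries (difference -2.47, SE 0.30, limma adjusted p = 0.000702), and Rpl26 was at 10.75 and 11.10 against 9.05 and 9.52 (difference -1.64, SE 0.21, limma adjusted p = 0.000999). Summed over 88 lines the level was 174000 and 282000 FPKM in untreated wild type, 61400 and 124000 FPKM in the treated libraries and 47500 and 50400 FPKM in the untreated libraries of the same label. The untreated wild-type libraries differed from each other in this sum by more than the treated replicate 2 did from wild-type replicate 1. Some of these genes have several lines or near-identical copies elsewhere in the genome, so their values are uncertain. Under the scalings 67 and 71 lines were lower, without untreated wild-type replicate 2 it was 14, and in the 4-library fit by limma it was 0, or 36 at an unadjusted p under 0.05, with a limma adjusted p of 0.136 for Rps25.

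Nuclear genes of the respiratory chain had 31 of 63 lower, 2 higher and a median of -0.90. Uqcrb, a subunit of complex III, was at 6.18 and 6.61 against 4.48 and 4.58 (difference -1.86, SE 0.19, limma adjusted p = 0.000201), Cox7b, of complex IV, was at 9.20 and 9.12 against 7.42 and 7.82 (difference -1.54, SE 0.17, limma adjusted p = 0.000409), and Ndufa4 was 1.69 log2 units lower. Their treated levels lay between those of untreated wild type and of the untreated libraries of the same label, at 3.70 and 3.77 for Uqcrb and 7.005 and 6.96 for Cox7b. Without treated replicate 2, 49 were lower and 2 higher, without untreated wild-type replicate 2, 9 were lower and none higher, and in the 4-library fit by limma none passed, 23 being lower at an unadjusted p under 0.05.

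**Figure D4:**
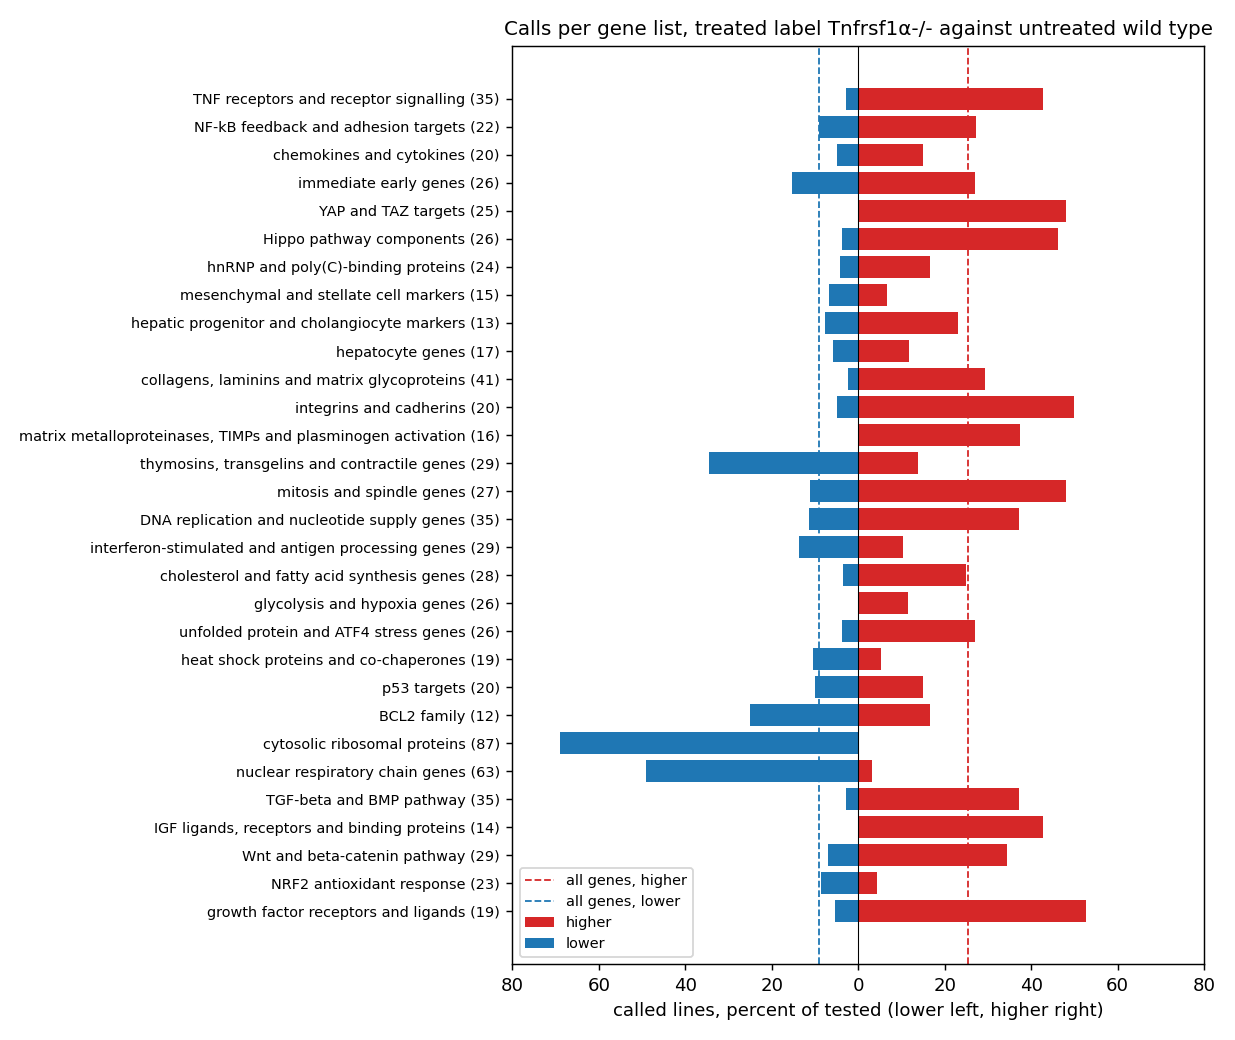
Percent of the tested lines of each gene list (number tested in parentheses) called higher (red, right) or lower (blue, left) in the treated libraries labelled Tnfrsf1α-/- against untreated wild type for lists with at least 10 tested lines. Dashed lines mark the shares over all 11860 genes, 25.3% higher and 9.17% lower; YAP and TAZ targets reach 12 of 25 to the right and cytosolic ribosomal proteins 60 of 87 to the left.

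The treated libraries differed from each other by over 2 log2 units in 1231 genes, against 127 in untreated wild type. These genes are described without a test. Eln, elastin, was at 10.55 and 10.08 in untreated wild type, at 11.30 in treated replicate 1 and at 0.49 in treated replicate 2. Cdh3, P-cadherin, was at 8.24 and 7.29 against 8.98 and 0.15, and Krt14, a basal keratin, at 9.93 and 10.02 against 8.61 and 0.17. Upk3b, Tspan8 and Sfrp2 had the same shape, as did both lines named NEWGENE_621351 and Acta2, smooth muscle actin. In each, treated replicate 1 lay near untreated wild type and replicate 2 near 0. In wild type with TNFα these genes were low too: Eln at 0.11 and 0.29, Krt14 at 0 and 0.10, and Acta2 at 0.02 and 0.13.

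Other genes were high in treated replicate 2 alone. Mmp3 and Mmp10, related stromelysins that degrade matrix, were listed at 0 in untreated wild type, at 0.32 and 0.26 in treated replicate 1 and at 11.49 and 9.73 in treated replicate 2. Crabp1, a retinoic acid binding protein, was at 0.63 and 0.97 against 0.58 and 11.34, and Ptges, a prostaglandin E synthase, at 0 and 0.30 against 0.21 and 8.09. The mesenchymal transcription factors Prrx1 and Prrx2 were at 7.02 and 8.14 in replicate 2 and at 0.16 and 0.75 in replicate 1, and Ptgr1 and Lect2 followed the same order. In wild type with TNFα Mmp3 was at 0.12 and 0.24, Crabp1 at 0.13 and 0.19 and Prrx1 listed at 0, while Ptgr1 was at 6.48 and 6.70. In the collagen list Col6a1 went with them, at 0.57 and 7.02, and the macrophage marker Cd68 was at 0.66 and 4.09. The summed macrophage and leukocyte markers went the other way, at 51 FPKM in treated replicate 1 and 28.2 FPKM in treated replicate 2. What set replicate 2 apart was not tested.

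**Figure D5:**
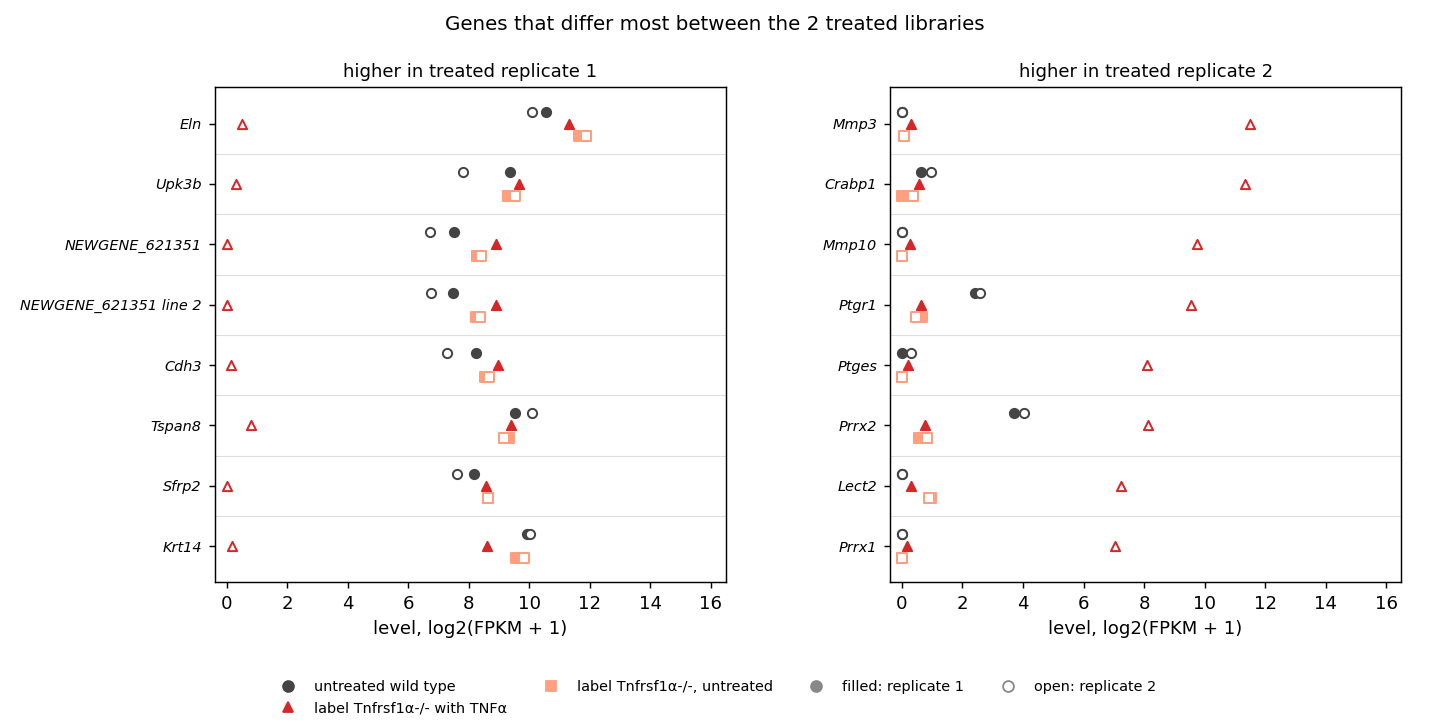
Levels, log2(FPKM + 1), of the 8 genes with the largest difference between the treated libraries in each direction, in untreated wild type (circles), the treated libraries labelled Tnfrsf1α-/- (triangles) and the untreated libraries of that label (squares), filled for replicate 1 and open for replicate 2. On the left the open triangles lie at or below 0.81 and all other points above 6, and on the right the open triangles lie above 7 and all other points at or below 4.03.

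Against the untreated libraries labelled Tnfrsf1α-/- 1163 genes (9.81%) were higher and 889 (7.50%) lower in the treated ones, with a median difference of -0.02. These 2052 calls were fewer than the 4085 against untreated wild type, but the order turned in the fits to the 4 libraries compared (570 against 333), with array weights (691 against 379), with quantile normalization (3789 against 3316) and without treated replicate 1 (7001 against 5702). Total FPKM was 469055 and 472935 in these untreated libraries, and the part of that gap in the result was not tested. Nt5e was at 0.70 and 0.56 in the untreated libraries and at 11.79 and 11.81 in the treated ones (difference 11.17, limma adjusted p = 2.86e-09), Sox9 was at 0.23 and 0.31 against 9.67 and 9.39 (difference 9.26, limma adjusted p = 2.71e-08), and Pold1 was at 2.61 and 2.85 against 9.64 and 9.72 (difference 6.96, limma adjusted p = 1.54e-08). Wnt5a and Tap2, both lower against untreated wild type, were higher against the untreated libraries of the label, by 4.46 and 6.27. Map3k7, Ripk1 and Tnfaip3 did not pass in this comparison (limma adjusted p = 0.352, 0.181 and 0.0649), and Yap1 was at 5.998 and 6.13 before and 5.80 and 5.61 after TNFα (limma adjusted p = 0.713). Fos was lower with TNFα by 4.78 (limma adjusted p = 6.98e-07). Leaving out treated replicate 1 raised the calls to 7001, and leaving out untreated replicate 1 or 2 of the label left 750 and 851.

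Against the treated libraries labelled Tnfrsf1β-/- 4085 genes (34.4%) were higher and 1297 (10.9%) lower, with a median of 0.60. After median-ratio scaling the higher share of the calls was 41.5%, against 75.9%. Ctgf was 3.06 log2 units higher than under the Tnfrsf1β-/- label (limma adjusted p = 8.07e-05), Junb 4.90 higher (limma adjusted p = 1.01e-06), Hnrnpk 5.09 higher (limma adjusted p = 0.000584) and Tnfrsf1a 1.02 higher (limma adjusted p = 0.00388). Sox17 was at 8.55 and 8.39 in the treated libraries labelled Tnfrsf1β-/-, close to untreated wild type and unlike its listed 0 under the Tnfrsf1α-/- label. Yap1 did not pass (difference 1.73, limma adjusted p = 0.0585). Without replicate 2 of the treated Tnfrsf1β-/- libraries 2187 genes were called, and in the fit to these 4 libraries alone 382.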

How the data were processed

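RNA was sequenced from 12 libraries in 6 groups of 2, made with Trizol and an Illumina TruSeq RNA kit from 1 ug of total RNA, per the labels' protocols. The authors deposited 1 table of log2 values, 1 per gene line and library. These deposited values, from 0 to 16.8, are taken as log2(FPKM + 1), normalized by the authors for transcript length and library size; the scale was read from the values and the table's name, and no label states it. For the aligner, genome build and quantifier, the entry is: not given in the sources used here. Whether strand was used is unknown, so overlapping and antisense genes cannot be separated. Of 22730 lines, 346 without a symbol were left out, and 1835 lines share a symbol with another. Lines with a mean of at least 1 FPKM over the 12 libraries (11860) were fitted in limma 3.58.1 under R 4.3.3 (trend, 6 group means, two-sided, Benjamini-Hochberg over all lines, threshold 0.05). The code was tested on simulated data in which all groups of a gene had the same spread, unlike the pairs measured here. Groups came from the labels.

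Members and gene lists were chosen with earlier results of these data known. The rule for named genes took Hnrnpk, Yap1, Wwtr1, Tnfrsf1a and Tnfrsf1b, the 12 highest and 12 lowest called differences with both treated libraries on 1 side of both untreated ones, up to 4 members per list by p (6 for lists of over 30), defining receptors and markers, and the 8 genes furthest apart between the treated libraries in each direction. Other genes named for a small count or for their promoter (Kif20a, Ube2c, Cdk1, Pold1, Mcm2, Mcm3, Mcm4, Mcm5, Mki67, Pcna, Ajuba, Nuak2 and the 7 stress genes of replicate 1) were chosen after their values were seen. Alternatives were a pseudocount of 0.1, other filters, median-ratio and quantile scaling, the 4 libraries alone, array weights, a replicate block and each library left out; leaving out the untreated libraries of both Tnfrsf1 labels or the treated wild-type libraries, and repeating the alternatives for lists, were chosen after seeing the data. Symbols were matched to RefSeq on GRCr8 for 10938 lines (92.2%), and promoters come from RefSeq. Some genes that the rule allows are not reported here.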

Additional observations from a re-analysis of the deposited data

Results flagged for a closer look

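The difference from untreated wild type was not the same in the treated libraries labelled Tnfrsf1α-/- and those labelled Tnfrsf1β-/-: tested directly against each other by limma, these treated groups differed in 5382 genes, 4085 of them higher and 1297 lower under the Tnfrsf1α-/- label.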

How the results depend on the processing

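Against untreated wild type 4085 genes were called, 333 when limma was fitted to the 4 libraries alone, 379 with array weights and 1467 without the 4 untreated libraries labelled Tnfrsf1α-/- or Tnfrsf1β-/-, an alternative chosen after seeing the data. Leaving out 1 library gave 1471 (untreated wild-type replicate 2) to 6539 calls (treated replicate 2). Against the untreated libraries of the same label, 2052 calls became 570 and 691 with the first 2 settings and 3789 with quantile normalization, which took the higher share from 56.7% to 34.8%, and 750 to 7001 with 1 library left out. Against the treated Tnfrsf1β-/- label, 5382 became 382 and 632, and 2187 to 7656. The cause of these shifts was not tested. Of 154 called genes among the 224 that the rule allows, 52 kept their call in all 14 alternatives, 96 lost it in the 4-library fit, 88 with array weights and 24 with either scaling. Medians changed sign with median-ratio and quantile scaling for the NRF2 list (0.13 to -0.39 and -0.45) and p53 targets (0.25 to -0.15 and -0.06). Same-numbered libraries had correlated deviations (r = 0.20, 0.14 and 0.18), but 2 pairs do not show that the numbers pair samples; with a replicate block 4549, 2675 and 5837 genes were called. Without treated replicate 1 and then without treated replicate 2, differences changed sign for Eln (-9.82 and 0.99), NEWGENE_621351 (-7.12 and 1.79, second line -7.12 and 1.77), Cdh3 (-7.61 and 1.22), Ptgr1 (7.06 and -1.85), Prrx2 (4.27 and -3.12), Sparc (-0.86 and 1.42), Col3a1 (-1.46 and 2.51), Hand2 (1.12 and -0.70), S100a4 (1.81 and -1.51), Itgb4 (5.21 and -1.44), Twist2 (5.20 and -0.50), Egfl7 (1.11 and -1.61) and Cd14 (-1.37 and 0.61). The depth in reads is unknown, so no limit from depth can be given.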
